A study of Homo sapiens with 24 samples.

Results

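The 10 genes described here are TRAF1, BIRC3, NFKBIA, NFKB1, NFKB2, RELB, TNFAIP3, TNFAIP2, IL32 and C15orf48, taken from the 60617 genes of a count table by their Ensembl identifiers. They were chosen because earlier results of these data put several of them among the genes that were higher with EGCG plus resveratrol than with resveratrol alone, so their values in that comparison are given as a description. The cells were 686Tu (MDA686TU), an established line of human squamous cell carcinoma of the head and neck, and all libraries came from this 1 line. They were cultured for 24 h in 4 groups of 6 libraries: untreated control, 40 µM EGCG (epigallocatechin gallate, a green tea catechin), 15 µM resveratrol (a stilbene of grapes), and both agents together at the same doses. EGCG was given in water, whereas the resveratrol stock was made with DMSO. The sources do not say whether control cells received DMSO, so resveratrol and its solvent cannot be told apart in the comparisons with the control. RNA was prepared in sextuplicate, nothing states that the replicates were separate cultures, and p-values therefore measure the spread between these libraries, which may be technical.

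NF-κB is a family of transcription factors that is held in the cytoplasm by inhibitor proteins until receptors of the tumor necrosis factor and interleukin 1 families trigger the destruction of the inhibitor. Many of the genes that NF-κB then switches on encode its own subunits and inhibitors or the adaptors of its receptors, so that they form feedback loops. In squamous carcinoma cells the pathway is known for its control of cytokines, chemokines and survival genes.

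The members differ in role and lie on 9 chromosomes. TRAF1 (ENSG00000056558, chr9:120902393-120929173, minus strand) encodes an adaptor of tumor necrosis factor receptors, and BIRC3 (ENSG00000023445, chr11:102317484-102339403, plus strand) encodes a ubiquitin ligase of the inhibitor of apoptosis family that binds such adaptors. NFKBIA (ENSG00000100906, chr14:35401079-35404749, minus strand) encodes the classical inhibitor, and TNFAIP3 (ENSG00000118503, chr6:137867214-137883314, plus strand) a ubiquitin-editing enzyme that ends receptor signaling. NFKB1 (ENSG00000109320, chr4:102501330-102617302, plus strand), NFKB2 (ENSG00000077150, chr10:102394110-102402524, plus strand) and RELB (ENSG00000104856, chr19:45001461-45038192, plus strand) encode subunits, the last pair being partners in the alternative branch of the pathway. TNFAIP2 (ENSG00000185215, chr14:103121476-103137439, plus strand) is a gene inducible by tumor necrosis factor, IL32 (ENSG00000008517, chr16:3065297-3082192, plus strand) encodes a proinflammatory cytokine, and C15orf48 (ENSG00000166920, chr15:45430579-45448761, plus strand) encodes a small mitochondrial protein related to NDUFA4, a subunit of respiratory complex IV. Coordinates are on GRCh38, cover the whole annotated gene, and every member is protein coding.

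The 200 bases before a RefSeq transcription start (GRCh38.p14) are shown for 6 members, because the letters that NF-κB recognizes are the sequence feature the members could share. Capitals mark matches to the κB consensus, a degenerate 10-letter motif searched on both strands with overlapping matches kept. TRAF1 is shown as the adaptor without a match, and NFKB1 as the gene with a match whose level differed least between combination and resveratrol.
TNFAIP3, plus strand, chr6:137867059-137867258: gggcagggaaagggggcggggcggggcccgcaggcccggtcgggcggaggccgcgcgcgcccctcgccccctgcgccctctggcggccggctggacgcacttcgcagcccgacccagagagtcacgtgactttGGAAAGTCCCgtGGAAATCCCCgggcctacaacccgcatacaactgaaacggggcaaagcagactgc
BIRC3, plus strand, chr11:102317284-102317483: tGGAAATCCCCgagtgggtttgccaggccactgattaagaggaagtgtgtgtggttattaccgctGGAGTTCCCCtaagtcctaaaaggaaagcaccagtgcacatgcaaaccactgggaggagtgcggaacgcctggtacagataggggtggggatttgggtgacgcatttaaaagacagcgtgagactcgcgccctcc
NFKB2, plus strand, chr10:102394378-102394577: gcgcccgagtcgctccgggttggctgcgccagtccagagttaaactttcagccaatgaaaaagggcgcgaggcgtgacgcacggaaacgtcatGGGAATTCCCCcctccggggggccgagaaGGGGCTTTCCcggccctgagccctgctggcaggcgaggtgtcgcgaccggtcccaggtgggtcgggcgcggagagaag
IL32, plus strand, chr16:3065203-3065402: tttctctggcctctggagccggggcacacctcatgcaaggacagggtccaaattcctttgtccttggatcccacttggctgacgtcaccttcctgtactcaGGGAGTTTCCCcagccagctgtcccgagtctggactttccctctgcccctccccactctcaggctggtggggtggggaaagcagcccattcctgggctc
NFKB1, plus strand, chr4:102501159-102501358: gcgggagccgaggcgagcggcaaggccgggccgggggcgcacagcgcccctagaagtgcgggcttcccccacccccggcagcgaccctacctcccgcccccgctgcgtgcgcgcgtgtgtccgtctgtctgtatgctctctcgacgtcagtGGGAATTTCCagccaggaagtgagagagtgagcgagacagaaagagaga
TRAF1, minus strand, chr9:120929172-120929371: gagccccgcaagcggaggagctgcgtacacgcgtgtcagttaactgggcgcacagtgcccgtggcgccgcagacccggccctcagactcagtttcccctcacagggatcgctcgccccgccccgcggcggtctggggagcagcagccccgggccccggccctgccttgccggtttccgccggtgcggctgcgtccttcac

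Windows of 300 bases, from 250 before to 50 after a start, were at hand for 9 of the 10 members, RELB being the exception, and the 9 genes had 15 windows because some had several starts. A match was found for 6 of the 9: NFKBIA, NFKB1, NFKB2, BIRC3, TNFAIP3 and IL32. TNFAIP3 had 2 matches starting 67 and 55 bases before its start, and BIRC3 had 2 matches at 199 and 135 bases. The single match of NFKBIA began 81 bases before the start and that of NFKB1 began 49 bases before it. No match was present in the 3 windows of TRAF1 or in those of TNFAIP2 and C15orf48. Over all 35116 windows of this length 5.91% held a match, as did 9.06% of the 10380 tested genes with a window. A match is a description of the letters and is no evidence of binding.

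Library totals ranged from 7034872 to 11735574 counts. Replicates 1 to 3 and replicates 4 to 6 of every group differed in mitochondrial transcripts, which took 0.249% to 0.326% of counts in the former and 0.448% to 0.775% in the latter, and no label names a batch. All 8 epithelial markers examined were detected, their summed normalized counts being 128074 to 169647 per library. These sums were 149925 or more in control and EGCG libraries and 139281 or less in resveratrol and combination libraries. The keratin genes KRT5, KRT6A, KRT14 and KRT17 made up most of the sums and were lower. CDH1 went the other way, from 66.9 FPKM in control to 90.1 in combination libraries. TP63 (53.7 and 57.0), SFN (979 and 997) and EPCAM (86.8 and 89.8) changed little between these groups. The 8 immune markers summed to 1.06 to 10.5 normalized counts per library, most of them from CD68, with CD3D and MS4A1 at 0 in every library and PTPRC never above 1 read. Of 5 stromal markers, COL1A1 held nearly all of a sum of 897 to 1755 that was higher in combination (1531 to 1755) than in control libraries (1127 to 1355), while PECAM1 never exceeded 1 read. The part of the COL1A1 and keratin differences in the results below was not tested.

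Levels of different genes were compared per length, as the authors' FPKM. In control cells NFKBIA was the most abundant member at 33.7 ± 1.04 FPKM (SD, n = 6). NFKB1 followed at 15.0 ± 0.385, TNFAIP3 at 10.6 ± 0.752, NFKB2 at 8.91 ± 0.486 and RELB at 5.10 ± 0.436 FPKM, each gap being larger than the summed SDs of the neighbors. TNFAIP2 (1.69 ± 0.218), BIRC3 (1.62 ± 0.209) and IL32 (1.60 ± 0.292) did not differ beyond their spread, and neither did TRAF1 (0.361 ± 0.130) and C15orf48 (0.160 ± 0.135), the lowest pair. The order changed with the combination. NFKB2 stood at 16.7 ± 1.38 FPKM, TNFAIP3 at 15.3 ± 0.822 and NFKB1 at 14.4 ± 0.345, with NFKB2 and TNFAIP3, and TNFAIP3 and NFKB1, within their summed SDs. TRAF1 reached 1.75 ± 0.168 FPKM and C15orf48 1.19 ± 0.251, still the lowest members. The order of NFKB1 and the gap between TNFAIP3 and NFKB2 rest on the gene length behind the FPKM. For NFKB1 that length was 0.406 times the union of its annotated exons. It was 0.699 times the union for NFKBIA, 0.780 for TNFAIP3 and 0.844 for NFKB2. With that union as the length, NFKB1 stood at 6.07 in control cells, below TNFAIP3 (8.25) and NFKB2 (7.52), and at 5.85 with the combination, below RELB (9.75). TNFAIP3 (8.25 ± 0.587) and NFKB2 (7.52 ± 0.411) then lay within their summed SDs in control cells. With the combination TNFAIP3 (11.9 ± 0.641) and NFKB2 (14.1 ± 1.17) lay beyond them.

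The main contrast set the combination against resveratrol alone, and so describes what was added by EGCG in cells that also received resveratrol. All 10 members had a mean above that of resveratrol alone, and 9 met the limits for a DEG (adjusted p under 0.1 and p under 0.05 in edgeR's quasi-likelihood test), where 7.86% of the 15476 genes tested did and 4.01% did so as higher. In 8 members the lowest combination library exceeded the highest resveratrol library, a separation that 3.2% of the tested genes showed in either direction and 1.83% in this one. These counts are not evidence about the members, since this contrast chose them. In bulk RNA a change in the share of cells with a transcript cannot be told apart from a change in RNA per cell.

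TRAF1 was at 10.1, 12.4 and 24.0 normalized counts (lowest, median and highest library) in control cells and at 16.8, 28.0 and 29.6 with EGCG. Resveratrol gave 22.9, 30.2 and 31.7, and the combination 59.6, 69.5 and 77.1. Every combination library lay far above every other library, whereas the EGCG and resveratrol libraries overlapped each other and the highest control library. The log2 fold change of TRAF1 between combination and resveratrol was 1.24 (SE 0.129), a 2.37-fold higher level, which ranked 3 from the top of 15476 genes. Ranks in this contrast are a description, since it chose the members, and NFKBIA and NFKB1 ranked 1585 and 5842. BIRC3, whose product binds TRAF adaptors, was at 86.4, 107 and 120 normalized counts in control cells and at 111, 148 and 170 with EGCG. It was at 184, 191 and 214 with resveratrol and at 271, 336 and 352 with the combination. The BIRC3 levels formed steps, with overlap between the control and EGCG libraries only, and its log2 fold change between combination and resveratrol was 0.70 (SE 0.0763; 1.63-fold).

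Both inhibitors were abundant, and they differed in pattern. TNFAIP3 was at 434, 453 and 526 normalized counts in control cells, at 466, 535 and 581 with EGCG, at 443, 458 and 494 with resveratrol, and at 633, 657 and 721 with the combination. Resveratrol libraries lay inside the control range, and only the combination libraries stood clear of all the others. The log2 fold change of TNFAIP3 was 0.53 (SE 0.0505) between combination and resveratrol. NFKBIA differed by a log2 fold change of 0.16 (SE 0.0340), from 773 to 865 normalized counts with resveratrol and from 886 to 966 with the combination. The groups did not overlap although the step was small.

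Among the subunits, NFKB2 was at 497 to 545 normalized counts with resveratrol and 641 to 798 with the combination, a log2 fold change of 0.37 (SE 0.0482). RELB was at 173 to 223 and 234 to 281 normalized counts, a log2 fold change of 0.36 (SE 0.0626). Both pairs of groups were separate. NFKB1 was the member below the limits, with a log2 fold change of 0.03 (SE 0.0348, 95% interval -0.04 to 0.10) and overlapping libraries, 736 to 808 with resveratrol and 779 to 827 with the combination.

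TNFAIP2 libraries overlapped, at 113 to 139 normalized counts with resveratrol and 129 to 183 with the combination, a log2 fold change of 0.25 (SE 0.0869). Its call was lost in 9 of the 24 fits that left out 1 library, those without resveratrol replicates 2 to 6 or combination replicates 2, 3, 5 or 6, where the log2 fold change was 0.18 to 0.26. The lowest of these values came without combination replicate 3.

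IL32 was at 32.3, 47.9 and 54.4 normalized counts in control cells and at 20.6, 63.6 and 94.2 with EGCG. Resveratrol gave 39.2, 53.2 and 66.3, and the combination 76.3, 100.1 and 123. The EGCG group held both the lowest library of all 24 and a library above the lower combination libraries, and resveratrol overlapped control. The combination stood above resveratrol without overlap, with a log2 fold change of 0.87 (SE 0.165; 1.83-fold) and rank 11 of 15476. C15orf48 had 0 to 4 reads per control library, 0 to 5 with EGCG, 3 to 7 with resveratrol and 11 to 22 with the combination. Its log2 fold change was 1.53 (SE 0.282), and it passed the filter on low counts through the 6 combination libraries alone, so that its presence among the tested genes already depended on a high level in this group. NDUFA4, the relative of its product, was at 1435 ± 102 normalized counts in control cells and 1382 ± 73.9 with the combination (SD, n = 6) and was called in no comparison.

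**Figure D1:**
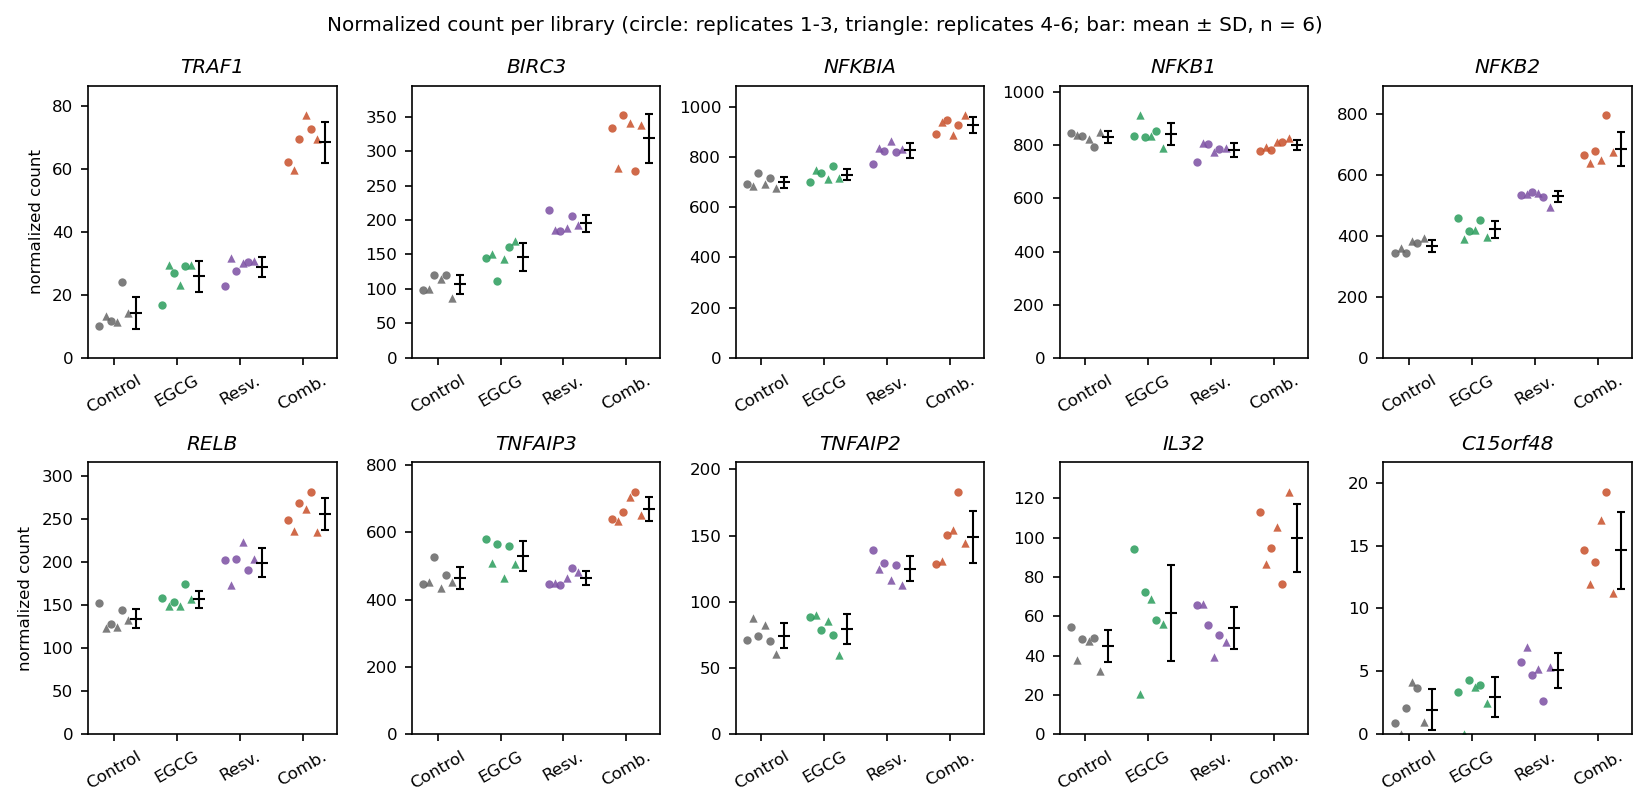
Normalized count (vertical axis, linear from 0) of each gene in every library of the 4 groups, with circles for replicates 1 to 3, triangles for replicates 4 to 6 and a bar for the mean ± SD (n = 6). For TRAF1 the combination libraries sit between 59.6 and 77.1, above all other libraries, while NFKB1 stays between 736 and 914 in all groups.

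The difference between combination and resveratrol had the same sign in replicates 1 to 3 as in replicates 4 to 6 for every member. These are the libraries from which the members were chosen, so the shared sign is no evidence of stability, and the values are a description. The log2 fold change of TRAF1 was 1.33 in the former and 1.15 in the latter. IL32 had 0.71 and 1.05, C15orf48 had 1.87 and 1.17, and BIRC3 had 0.66 and 0.75. TNFAIP3 had 0.55 and 0.51, close to each other.

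EGCG against control shares no library with that contrast and was tested. Of the 10 members, 4 were upregulated by EGCG (TRAF1, BIRC3, NFKB2 and TNFAIP3) and none was downregulated, where 1.76% of the genes tested were called and 0.905% were called higher. All 10 log2 fold changes were above 0, with a median of 0.22 beside a median of 0.00 over all genes tested. No member separated the EGCG libraries from the control libraries completely, a separation that 1.58% of genes showed.

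TRAF1 rose from 14.1 ± 5.07 to 25.8 ± 5.02 normalized counts (SD, n = 6), a log2 fold change of 0.83 (SE 0.187, adjusted p = 0.0128), and 4 of 6 EGCG libraries lay above the highest control library. BIRC3 rose from 106 ± 13.7 to 147 ± 20.3, with a log2 fold change of 0.46 (SE 0.0953, adjusted p = 0.00492) and 5 of 6 EGCG libraries above all controls. Both calls held in all 24 fits that left out 1 library. NFKB2 rose by a log2 fold change of 0.21 (SE 0.0533, adjusted p = 0.0319), and TNFAIP3 by 0.20 (SE 0.0518, adjusted p = 0.0467).

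The NFKB2 call was lost without control replicate 1, EGCG replicate 1 or EGCG replicate 3 (log2 fold change 0.18 to 0.19, adjusted p 0.105 to 0.118). The TNFAIP3 call was lost without control replicates 1, 4 or 5 or EGCG replicates 1, 2 or 3 (0.16 to 0.19, adjusted p 0.106 to 0.172). In replicates 1 to 3 alone the log2 fold change was 0.64 for TRAF1 (adjusted p = 0.597) and 0.32 for BIRC3 (adjusted p = 0.548). In replicates 4 to 6 alone it was 1.03 for TRAF1 (adjusted p = 0.0710) and 0.61 for BIRC3 (adjusted p = 0.00312). NFKB2 went the other way, with 0.33 in replicates 1 to 3 (adjusted p = 0.0523, within the limits) and 0.09 in replicates 4 to 6 (adjusted p = 0.805). TNFAIP3 had 0.25 (adjusted p = 0.166) and 0.13 (adjusted p = 0.645), so that no member was called in both sets of replicates.

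IL32 with EGCG had a log2 fold change of 0.52 (SE 0.187) that missed the limits (adjusted p = 0.242), with 5 of 6 libraries above the highest control. EGCG replicate 4, at 20.6 normalized counts, lay below all of them, and without it the log2 fold change was 0.66 (adjusted p = 0.0179). Of the 24 fits that left out 1 library, only this 1 called IL32. Their log2 fold changes were 0.35 to 0.66, with adjusted p-values up to 0.579. RELB had a log2 fold change of 0.22 (SE 0.0721, adjusted p = 0.165), and 0.26 (adjusted p = 0.0982, within the limits) without control replicate 1. That was the only 1 of the 24 fits to call RELB, and their values were 0.19 to 0.26. NFKBIA, NFKB1, TNFAIP2 and C15orf48 had log2 fold changes of 0.06, 0.02, 0.11 and 0.64, with adjusted p-values of 0.562, 0.911, 0.801 and 0.723. For C15orf48, with 12 reads in all control libraries and 19 in all EGCG libraries, the 95% interval of the log2 fold change ran from -0.33 to 1.62.

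Resveratrol against control changed a large part of the transcriptome, with 56.9% of the tested genes called, so a count of called members is read against a high background. The resveratrol libraries of this comparison also served in the main contrast. That contrast chose the members for values above these libraries, a choice that favors low values with resveratrol. The adjusted p-values of the members here carry that choice, so they are a description. Of the members, 7 were upregulated, as were 28.9% of all genes, and NFKB1 was downregulated. In 5 the resveratrol libraries all lay above the control libraries, as in 15.1% of all genes (31% separated in either direction). The largest log2 fold changes were those of C15orf48, 1.31 (SE 0.442, adjusted p = 0.0129), and TRAF1, 1.02 (SE 0.179, adjusted p = 1.0e-05). C15orf48 was tested only because of its combination libraries, and had 12 reads in all control and 32 in all resveratrol libraries. BIRC3 rose by 0.88 (adjusted p = 2.2e-10), TNFAIP2 by 0.76 (adjusted p = 3.4e-08), RELB by 0.57 (adjusted p = 1.0e-08) and NFKB2 by 0.54 (adjusted p = 4.9e-11) on the log2 scale.

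TNFAIP3 and IL32 were the members without a call for resveratrol alone, the direction that the choice of the members favors. TNFAIP3 was at 464 ± 33.0 normalized counts in control and 463 ± 20.7 in resveratrol-treated cells (SD, n = 6), a log2 fold change of 0.00 with a 95% interval of -0.10 to 0.10 (adjusted p = 0.975). IL32 had 0.28 (95% interval -0.10 to 0.65, adjusted p = 0.230). NFKB1 fell by 0.08 on the log2 scale (adjusted p = 0.0473), a change that was 0.00690 in the other direction with library size as the sole scaling, and that was lost in 6 of the 24 fits that left out 1 library, namely those without control replicate 5, EGCG replicates 1, 2, 4 or 6 or resveratrol replicate 1.

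The combination against control called 8 of the 9 members other than C15orf48, all higher and all with separate groups of libraries, beside 59.8% of genes called (29.9% higher) and 31.9% with separate groups (15.4% higher). It shares its control libraries with the comparisons above and its treated libraries with the main contrast. The members were chosen for high values in these treated libraries. Their adjusted p-values here carry that choice, so they are a description and not evidence about the members. C15orf48 had a log2 fold change of 2.84 (SE 0.351), given without a test because only the combination libraries carried it past the filter on low counts, so that it had to differ, and its control libraries held 12 reads in all. TRAF1 rose by 2.26 (SE 0.152, 4.80-fold, adjusted p = 3.3e-15) and BIRC3 by 1.58 (SE 0.0850, adjusted p = 6.2e-18). IL32 rose by 1.15 (adjusted p = 6.6e-07), TNFAIP2 by 1.01 (adjusted p = 2.9e-11), RELB by 0.93 (adjusted p = 2.5e-14), NFKB2 by 0.91 (adjusted p = 1.7e-17), TNFAIP3 by 0.53 (adjusted p = 3.1e-11) and NFKBIA by 0.41 (adjusted p = 1.4e-12). NFKB1 had -0.05 (adjusted p = 0.229).

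**Figure D2:**
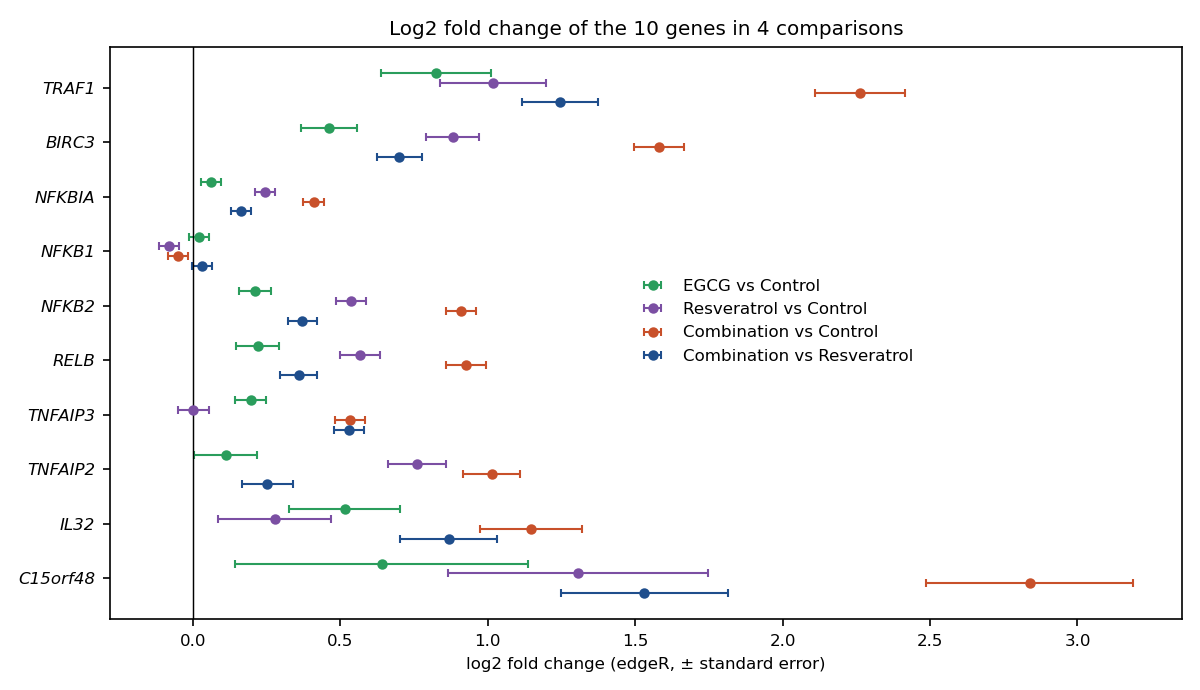
Log2 fold change (horizontal axis, edgeR, bars ± SE) of the 10 genes in EGCG, resveratrol and combination against control and in combination against resveratrol. TRAF1 reaches 2.26 for the combination against control, and NFKB1 stays between -0.08 and 0.03.

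The combination was next set beside the summed log2 fold changes of EGCG alone and resveratrol alone. It exceeded that sum for all 10 members, by 0.01 for NFKB1 to 0.89 for C15orf48, with a median of 0.20, but the control and treated libraries enter both sides and the main contrast that chose the members is part of this difference, so these values are a description and nothing is read from the calls. TNFAIP3 alone met the limits over all libraries (0.265% of the tested genes did, 0.207% as higher), with 0.53 for the combination, 0.20 for the sum and a difference of 0.33 (SE 0.0724). In replicates 1 to 3 alone its difference was 0.30 (SE 0.0969) and no longer met them, and in replicates 4 to 6 alone it was 0.38 (SE 0.0847). TRAF1 stood at 2.26 against a sum of 1.85, a difference of 0.42 with an SE of 0.235. Replicates 1 to 3 alone gave 0.69 for it and replicates 4 to 6 alone gave 0.12, and it was 0.19 without control replicate 3, the highest TRAF1 control library. IL32 stood at 1.15 against 0.79 (difference 0.35, SE 0.252) and C15orf48 at 2.84 against 1.95 (difference 0.89, SE 0.624), both under 2 standard errors.

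**Figure D3:**
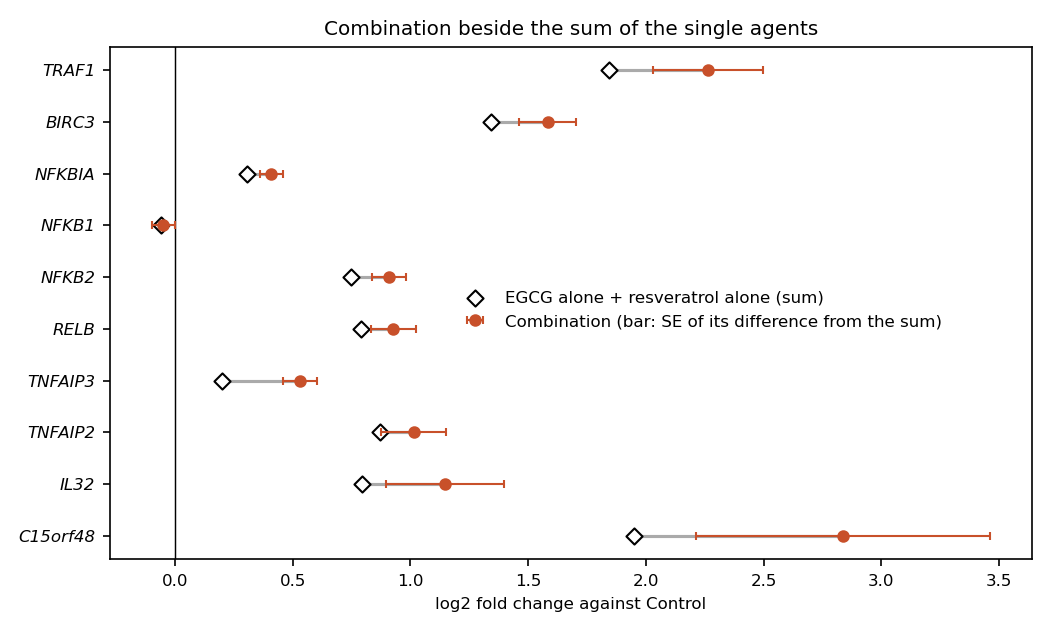
Log2 fold change against control (horizontal axis) of the combination (filled circles, with bars for the SE of its difference from the sum) and the sum of EGCG alone and resveratrol alone (open diamonds). TNFAIP3 shows a sum of 0.20 and a combination value of 0.53.

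Other genes of the pathway were grouped by role into 4 lists of 98 genes in all, of which 80 were tested. They were compiled with earlier results of these data known, so their counts and the adjusted p-values of their genes are a description. For combination against resveratrol, 21 were called higher and 2 lower, 28.8% of those tested, beside 7.86% of all genes tested (4.01% higher). By role, 1 of 12 genes for other subunits, inhibitors and kinases was called, 3 of 24 adaptors and ubiquitin enzymes, 5 of 19 receptors and ligands, and 14 of 25 inducible targets. The median log2 fold changes of these lists were 0.03, 0.00, 0.13 and 0.33, beside 0.00 over all genes tested. RELA, the main activating subunit, was at 1238 ± 34.1 normalized counts in control cells, 1273 ± 55.9 in EGCG, 1260 ± 60.4 in resveratrol and 1336 ± 65.0 in combination libraries (SD, n = 6), and its log2 fold change between combination and resveratrol was 0.09 (adjusted p = 0.206). Against control, RELA was called higher with the combination (0.11, adjusted p = 0.00924), as 29.9% of all tested genes were, and was not called with either agent alone.

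Targets held the largest changes of these lists between combination and resveratrol. CSF2, which encodes a growth factor of granulocytes and macrophages, rose from 8.02 ± 2.04 to 19.3 ± 5.27 normalized counts (log2 fold change 1.24, SE 0.271, adjusted p = 0.00354). Its mean with resveratrol lay under the 10 reads that the filter on low counts takes as its minimum. CSF2 may therefore have been tested because of its combination libraries, a further reason not to read its p-value as evidence. CXCL8, encoding a chemokine for neutrophils, rose from 120 ± 24.9 to 191 ± 20.7 (0.67, adjusted p = 1.5e-05). The chemokine gene CXCL3 (0.89, adjusted p = 0.0118), the cytokine gene IL6 (0.56, adjusted p = 0.0108) and the adhesion molecule gene ICAM1 (0.56, adjusted p = 0.00196) also rose. CXCL3 has near-identical relatives, between which reads may be divided in an uncertain way. The lower pair, named after its values were seen because it was the whole of the lower calls, was PI3, which encodes a protease inhibitor of squamous epithelia (-0.30, adjusted p = 0.0313), and S100A9, a calcium-binding protein gene of the same cells (-0.27, adjusted p = 0.0547).

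Among receptors and ligands, TNFRSF9 rose from 27.1 ± 6.52 to 46.2 ± 7.83 normalized counts (0.75, adjusted p = 0.00327), and the ligand gene TNFSF15 (0.61, adjusted p = 0.0362) and the receptor gene IL1R1 (0.36, adjusted p = 0.0649) rose too. The ligands of that receptor were lower with resveratrol and less so with the combination. IL1B was at 405 ± 23.8 normalized counts in control cells, 143 ± 10.7 in resveratrol-treated cells and 183 ± 14.4 in cells with both agents. Its log2 fold changes were -1.49 for resveratrol against control (adjusted p = 2.1e-20) and 0.36 for combination against resveratrol (adjusted p = 0.00201). IL1A had 2413 ± 160, 1185 ± 96.9 and 1396 ± 116 normalized counts in the same groups, and 0.23 between combination and resveratrol (adjusted p = 0.00809). TNF was near the floor, with group means of 0.696 to 2.71 normalized counts, and was not tested. Of the adaptors and inhibitors, TNIP1, which encodes a partner of the TNFAIP3 protein, rose by 0.32 (adjusted p = 4.1e-07), the deubiquitinase gene CYLD by 0.20 (adjusted p = 0.0200), NFKBIB by 0.20 (adjusted p = 0.0497) and RBCK1 by 0.14 (adjusted p = 0.0492).

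**Figure D4:**
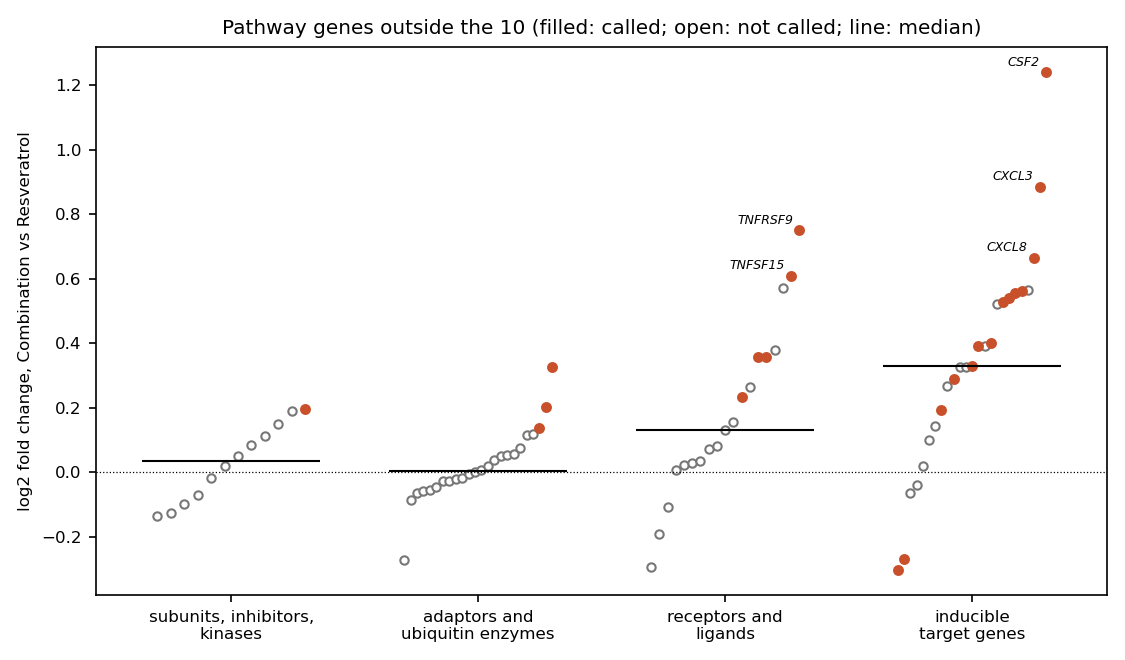
Log2 fold change between combination and resveratrol (vertical axis) of the 80 tested pathway genes other than the 10 members, in 4 groups by role, with filled points for called genes, open points for the others and a line for the median. The target genes reach 1.24 with a median of 0.33, whereas the medians of the first pair of lists are 0.03 and 0.00.

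With EGCG alone, 3 of the 80 pathway genes were called, 3.75% beside 1.76% of all genes tested. TNIP1 rose by 0.20 on the log2 scale (adjusted p = 0.00215) and SAA1, an acute-phase protein gene with a near-identical copy, by 0.74 (adjusted p = 0.0170), while PTGES, which encodes a prostaglandin synthase, fell by 0.18 (adjusted p = 0.0288). With resveratrol alone 50 of 80 were called, 62.5% beside 56.9%, of which 39 were higher and 11 lower. They included NFKBIZ (0.63, adjusted p = 5.6e-06) and BCL3 (-0.45, adjusted p = 0.000161), which encode atypical inhibitor proteins of the nucleus, and the adaptor kinase gene RIPK1 (0.46, adjusted p = 1.8e-09). CYLD (0.45), TNFRSF9 (1.54), CXCL8 (1.26) and SAA2 (1.25) were also higher, with adjusted p-values of 3.1e-08, 5.6e-07, 7.8e-11 and 0.000849. The mean of TNFRSF9 in control cells, 9.37 normalized counts (SD 4.65), lay under the minimum of the filter on low counts. TNFRSF9 may therefore have been tested because of its treated libraries, a further reason not to read its p-value here as evidence. With the combination against control 59 of 80 were called, 73.8% beside 59.8%.

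Among tested genes other than the members, those most like TRAF1 over the 24 libraries by Pearson's r of log2 CPM were SEPHS2 (r = 0.932), MSN (r = 0.923) and C1QL4 (r = 0.910). Of the members, BIRC3 had r = 0.919 with TRAF1. SEPHS2, which encodes an enzyme that makes selenophosphate, was at 553 ± 20.5, 677 ± 19.6, 770 ± 42.9 and 971 ± 59.4 normalized counts in control, EGCG, resveratrol and combination. Outside the members, those most like IL32 were DAPP1 (r = 0.819), IFT52 (r = 0.804) and SLC39A8 (r = 0.775), while the member C15orf48 had r = 0.804 with IL32. The 24 libraries share 4 groups, and such values mostly describe the group means: the median r of the 45 pairs of members was 0.75 over all libraries and 0.06 after the group means were removed.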

How the data were processed

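The authors extracted total RNA, made stranded mRNA libraries, trimmed the reads with Trimmomatic 0.36 and aligned them to GRCh38 with HISAT2 2.0.4 (per the labels). The counting program, its strand setting and the annotation release are not given in the sources used here, so reads of overlapping genes are of uncertain origin. WAKMAR2, antisense to TNFAIP3, had 16.9 reads per library beside 537 for TNFAIP3, and the other annotated neighbors that overlap a member and are in the table had at most 1 read per library. The authors deposited raw counts per gene, normalized counts (a signal, checked to be counts divided by 1 size factor per library) and FPKM values (checked to be normalized counts per gene length). Tests used the raw counts, group levels the normalized counts, and comparisons between genes the FPKM values.

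All 24 libraries were fitted together in edgeR 4.0.16 (R 4.3.3) with filterByExpr, TMM and the quasi-likelihood test, and p-values were adjusted by Benjamini-Hochberg over 15476 genes. Counting error is largest for C15orf48, the member with the fewest reads. Intervals are the log2 fold change ± 1.96 SE. The members, gene lists, tests and alternatives were chosen with earlier results of these data known. By the naming rule the text gives all members and the called pathway genes with the largest changes. Up to 5 of these a list were taken in the main contrast, and up to 2 a list for EGCG or resveratrol alone. The rule also names RELA, TNF, IL1A, IL1B, NDUFA4 and, outside the members, the 3 genes most like TRAF1 and IL32. PI3 and S100A9 fall outside that rule. SOD2 could not be matched to the table. The alternatives were DESeq2 1.42.0, other size factors, other filters, a stricter threshold, only the groups compared, a replicate block, replicates 1 to 3 and 4 to 6 separately or as a term, each library left out in turn, log2 CPM as the level and, chosen after seeing the data, the union exon length for FPKM. The edgeR and DESeq2 steps were tested on simulated data. Promoter sequences are from RefSeq. The study's protein assays and animal experiments are not analysed here.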

Additional observations from a re-analysis of the deposited data

Results flagged for a closer look

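The 40 groups of 6 libraries (10 genes in 4 treatments) were examined for a library far from the rest, measured by its gap to the nearest other library over the range of the group, and chance alone marks about 1 in 20 groups. TRAF1 in control replicate 3, at 24.0 normalized counts beside 10.1 to 14.2 in the other control libraries, stood apart. Without it the TRAF1 log2 fold change was 1.05 for EGCG and 2.49 for the combination against control. NFKB2 stood apart in resveratrol replicate 6 as the lowest of its group, at 497 normalized counts, and in combination replicate 3 as the highest, at 798. Without combination replicate 3 the log2 fold change of NFKB2 between combination and resveratrol was 0.32 in place of 0.37. TNFAIP3 was marked because the effect of EGCG beside resveratrol exceeded that of EGCG alone by 0.33 on the log2 scale (SE 0.0724), a difference that contains the contrast from which the genes were chosen and is therefore a description.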

How the results depend on the processing

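For the 30 tested member effects (10 genes, each treatment against control), 985 of 1015 values under an alternative kept their side of the threshold and, where called, their direction (uncalled values near 0 of NFKB1 and TNFAIP3 changed sign), 25 lost the call, 4 gained it, and 1 turned: NFKB1 with resveratrol was 0.00690 with library size alone. The 30 include C15orf48 for the combination against control, given above without a test, so its unchanged calls are no sign of stability. IL32 gained a call for EGCG with a filter of 1 count over all libraries (0.52, adjusted p = 0.00811) and for resveratrol when only the groups compared were fitted (0.28, adjusted p = 0.0793). In replicates 1 to 3 alone C15orf48 lost its call for resveratrol (0.92). The count of members called for EGCG was 1 in replicates 1 to 3, 2 in replicates 4 to 6 and 2 to 5 with a library left out, and for the interaction it was 0 in replicates 1 to 3, where TNFAIP3 had 0.30. DESeq2 called 7 members in combination against resveratrol, where C15orf48 got no adjusted p and TNFAIP2 was not called. Pathway genes called in that contrast numbered 12 in replicates 4 to 6, those for EGCG 1 in replicates 4 to 6. For the interaction 3 pathway genes were called, 6 with every gene of at least 1 count, 0 in replicates 1 to 3, 5 in replicates 4 to 6 and 2 to 5 with a library left out. Over all genes, combination against resveratrol called 1217, 803 at an adjusted p under 0.05 and 399 in replicates 4 to 6. EGCG called 273 of all genes, 84 in replicates 1 to 3, 85 in replicates 4 to 6 and 192 to 382 with a library left out. The interaction called 41 of all genes, 69 with DESeq2, 92 with every gene of at least 1 count, 79 with replicates 1 to 3 against 4 to 6 as a term, 6 in replicates 1 to 3, 24 in replicates 4 to 6 and 33 to 59 with a library left out. Same-numbered libraries of different groups deviated together with a median r of 0.05. That median was 0.03 for other numbers of the same replicate set (1 to 3 or 4 to 6) and -0.04 between the sets. Of 36 same-numbered pairs, 2 exceeded 0.1. Each of 72 comparisons set 1 library against the 6 libraries of another group, and in 30 the highest r was with the own number. Whether replicate numbers pair the libraries is not settled by these values, and the main fit treated the libraries as unpaired. With the replicate number as a block the interaction called 85 of all genes and 5 pathway genes, and no count of members moved. Library size alone moved the median of all genes by 0.09 for resveratrol and put 68.3% of its calls higher in place of 50.7%; for the combination against control 6041 of 9352 calls were higher in place of 4633 of 9258, and for the interaction 66.7% in place of 78.0%. As log2 CPM, 9 of 10 members kept the order of the 4 group means; the exception was TNFAIP3, whose control and resveratrol means were nearly equal. With few reads, C15orf48 was measured least precisely.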
